A study of Mus musculus with 38 samples.

Results

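The genes described here encode 10 integrin subunits: the alpha subunits Itgam (CD11b), Itgax (CD11c), Itgal (CD11a), Itgae (CD103), Itga4 and Itgav, and the beta subunits Itgb1, Itgb2, Itgb5 and Itgb7. They were chosen by name from 43346 counted gene rows, after Ensembl identifiers had been matched to symbols, and all 10 were found and passed the filter on low counts. Their RNA levels were compared over 4 macrophage populations sorted from the lungs of naive C57Bl/6 mice, 8 to 10 weeks of age. The 3 interstitial macrophage populations were IM1 (MHC class II low, CD206 positive), IM2 (MHC class II positive, CD206 positive) and IM3 (MHC class II positive, CD206 low), all from MerTK-enriched cells gated as CD64 positive and CD11b positive and free of Siglec F, Ly6G, CD24, CD43 and lymphocyte markers. Alveolar macrophages (AM) were gated as CD11c positive and Siglec F positive and free of CD11b, CD103, Gr1 and lymphocyte markers, and are labelled as MerTK and CD64 positive too. The marker labels give CD11c as low in IM1 and IM2 and positive in IM3, but the sorting protocol separates these populations by CD206 and MHC class II and states no CD11c cut between them. Surface CD11b, CD11c and CD103 thus took part in defining the populations, and RNA differences of Itgam, Itgax and Itgae across those gates are no independent finding. Whether CD11c also separated IM3 from IM1 and IM2 in the sort is not settled by these sources. No genotype, transgene or treatment is given for any population.

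Each population had 3 libraries, replicates A, B and C, made from about 50000 sorted cells and 2 ng of RNA each. The labels do not say whether the replicates came from separate animals or pools, so a p-value speaks only to how far these libraries scatter. Reads assigned to genes numbered 11818981 to 15758326 per library, and 3 reads correspond to 0.19 to 0.254 CPM (read counts scaled to the total of the library). On CPM of assigned reads, markers of alveolar macrophages summed to 153 to 268 CPM in IM1, 53.4 to 145 in IM2, 22.4 to 31.3 in IM3 and 46200 to 53900 in AM, and interstitial markers summed to at least 16200 CPM in every interstitial library and at most 12.4 in AM. IM1 replicate A stood apart, with the fewest reads, the highest share of reads mapping to several places (14.78%), and the lowest level among the IM1 libraries for all 10 integrin genes. Macrophage markers, all 6 detected in every population, summed to 18400 to 27600 CPM in the interstitial libraries and 35100 to 43700 in AM. Markers of other cell types differed between the populations. Fibroblast markers (5 of 5 higher in the interstitial populations) summed to 30.9 to 96.7 CPM in IM1, 72.5 to 91.8 in IM2, 49.3 to 87.3 in IM3 and 0 to 0.327 in AM, where Col1a2, Col3a1, Dcn and Lum were at 0 counts. Endothelial markers (4 of 4 higher) summed to 22.6 to 47.9, 25.9 to 27.7 and 32.7 to 38.8 CPM in IM1, IM2 and IM3 and to at most 0.0693 in AM. Dendritic cell markers (4 of 6 tested higher, 1 lower) summed to 35.1 to 63, 49.9 to 65 and 37.4 to 55.3 CPM in IM1, IM2 and IM3 and 3.33 to 5.4 in AM. The monocyte marker Ccr2 averaged 74.62, 503.8 and 1166 CPM in IM1, IM2 and IM3 and 12.77 in AM, while the monocyte markers Ly6c2 and Plac8 each averaged below 2 CPM in every population. The B cell sum was 45 to 66.2 CPM for IM1, 49.9 to 54.5 for IM2, 33.4 to 36.9 for IM3 and at most 1.44 for AM. Nearly all of it was Cd79b, whose mean was 53.81 (IM1), 49.42 (IM2), 33.81 (IM3) and 0 (AM). Neutrophil markers went the other way, with 7.84 to 11.7 CPM in AM, mostly Cxcr2 (mean 9.148), and at most 0.361 in any interstitial library. Platelet markers reached 4.4 to 7.36 CPM in interstitial libraries and at most 0.327 in AM. Mast cell, basophil and eosinophil markers stayed at or below 0.801 CPM in every library. Pax5 and Ly6g had 0 counts throughout. The part of these other cells in the integrin values was not tested. In sorted bulk samples, fewer cells of a type and less RNA per cell cannot be told apart.

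Integrins are heterodimers of an alpha and a beta subunit that bind matrix proteins or counter-receptors outside the cell and attach to the actin cytoskeleton inside it. The beta2 subunit pairs with the CD11 alpha subunits and is restricted to leukocytes, alpha4 pairs with beta1 or beta7 and binds VCAM-1 and fibronectin, CD103 pairs with beta7 and binds E-cadherin, and alphaV pairs with beta1, beta5 and other beta subunits and binds RGD-containing ligands. Macrophages use them to adhere, to migrate and to take up complement-coated or apoptotic particles, and alphaV integrins can release active TGF-beta from its latent form.

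The interstitial populations and AM differed both in their alpha and in their beta subunits. Compared per length, as shares of the summed TPM (read counts scaled to exon length and to a common library total) of all alpha subunits, Itgam made up 65.6 ± 5.83% in IM1, 58.8 ± 0.626% in IM2, 35.2 ± 1.81% in IM3 and 0.428 ± 0.101% in AM (SD, n = 3 each, as for all means below). Itgax made up 3.04 ± 0.596%, 9.69 ± 0.823% and 31.4 ± 0.977% in IM1, IM2 and IM3 and 62.8 ± 1.2% in AM. Itgal made up 1.13 ± 0.339%, 1.17 ± 0.0436% and 2.66 ± 0.318% in IM1, IM2 and IM3 and 21.8 ± 1.02% in AM. IM1 and IM2 thus held mostly Itgam and IM3 both Itgam and Itgax, whereas AM held Itgax and Itgal as their main alpha subunits. The contrast with AM in Itgam and Itgax follows the CD11b and CD11c gates and is description only. The summed alpha subunit level was 475.1 ± 195 TPM in IM1, 624.1 ± 123 in IM2, 946.7 ± 122 in IM3 and 820.2 ± 26.2 in AM. Itgam averaged 304.1, 366.5 and 331.6 TPM in IM1, IM2 and IM3, so its lower share in IM3 went with a higher sum. Among the beta subunits, Itgb5 was the most abundant per length in the interstitial populations, at 43.6 ± 1.41% in IM1, 46.0 ± 1.47% in IM2, 49.6 ± 3.07% in IM3 and 10.5 ± 0.387% in AM. Itgb2 made up 32.6 ± 4.2%, 29.5 ± 1.61% and 28.5 ± 1.24% in IM1, IM2 and IM3 and 80.2 ± 0.903% in AM. Itgb1 made up 23.5 ± 3.38%, 24 ± 2.01% and 21.1 ± 2.66% in IM1, IM2 and IM3 and 9.26 ± 0.533% in AM. The summed beta subunit level was 1401 ± 469 TPM in IM1, 1515 ± 221 in IM2, 2209 ± 188 in IM3 and 3123 ± 89.7 in AM. Shares within a sum depend on each other, and they rest on the whole counted exon length, which is 13978 bases for Itga4 and 10744 for Itgav against 2743 to 6380 for the other members.

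**Figure D1:**
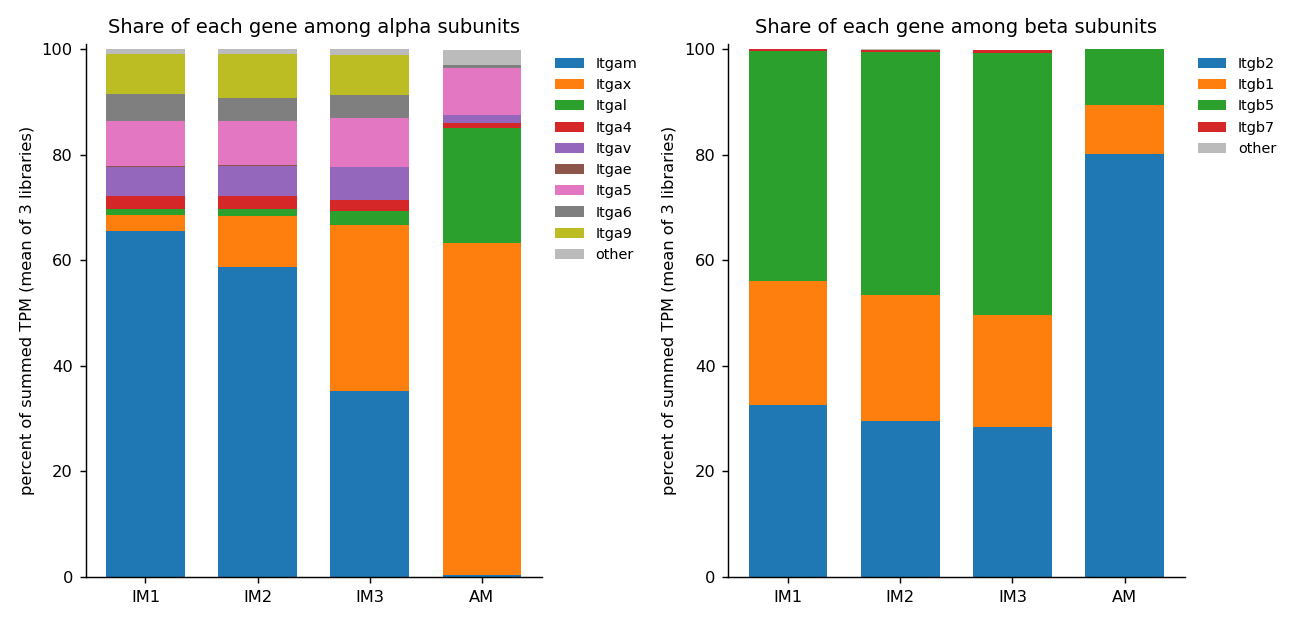
Mean share of each gene in the summed TPM of alpha subunits (left) and beta subunits (right) in IM1, IM2, IM3 and AM, in percent (mean of 3 libraries, with no error drawn). Itgam and Itgb5 take the largest shares in IM1 and IM2 (65.6% and 43.6% in IM1), and Itgax and Itgb2 take the largest in AM (62.8% and 80.2%). The contrast of Itgam and Itgax with AM follows the CD11b and CD11c gates.

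The libraries were next compared gene by gene with edgeR's quasi-likelihood test with Benjamini-Hochberg adjustment over 14095 genes, on CPM scaled by TMM factors. A gene is called where its adjusted p is under 0.05. Against AM, the mean of the 3 interstitial populations was higher for 5 members (Itgam, Itga4, Itgav, Itgb5 and Itgb7) and lower for 3 (Itgax, Itgal and Itgb2), in a comparison in which 64.6% of all genes tested were called, 35.9% higher and 28.7% lower. Libraries of the groups did not overlap for 3 higher and 3 lower members, against 48.7% of all genes. Their median log2 fold change was 0.40, against 0.10 over all genes tested. IM1 alone was higher for 4 members and lower for 3, where 58.8% of all genes were called (33.1% higher, 25.7% lower) and 62.4% did not overlap, nor did 6 members. IM2 was higher for 5 and lower for 3, where 60.5% were called (34.3% higher, 26.2% lower) and 69.8% did not overlap, nor did 8 members. IM3 was higher for 6 and lower for 4, where 57.4% were called (32.4% higher, 25% lower) and 70% did not overlap, nor did any of the 10 members. With so many genes called, the members' counts lie near the background for IM1 and IM2. Each count includes Itgam and Itgax, whose products were gated, and the IM3 count also includes the gated Itgae. In IM3 the calls of Itgae and Itgb1 were lost in 2 and 10 of 19 alternative settings. The counts are therefore description only. These comparisons share the AM libraries.

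**Figure D2:**
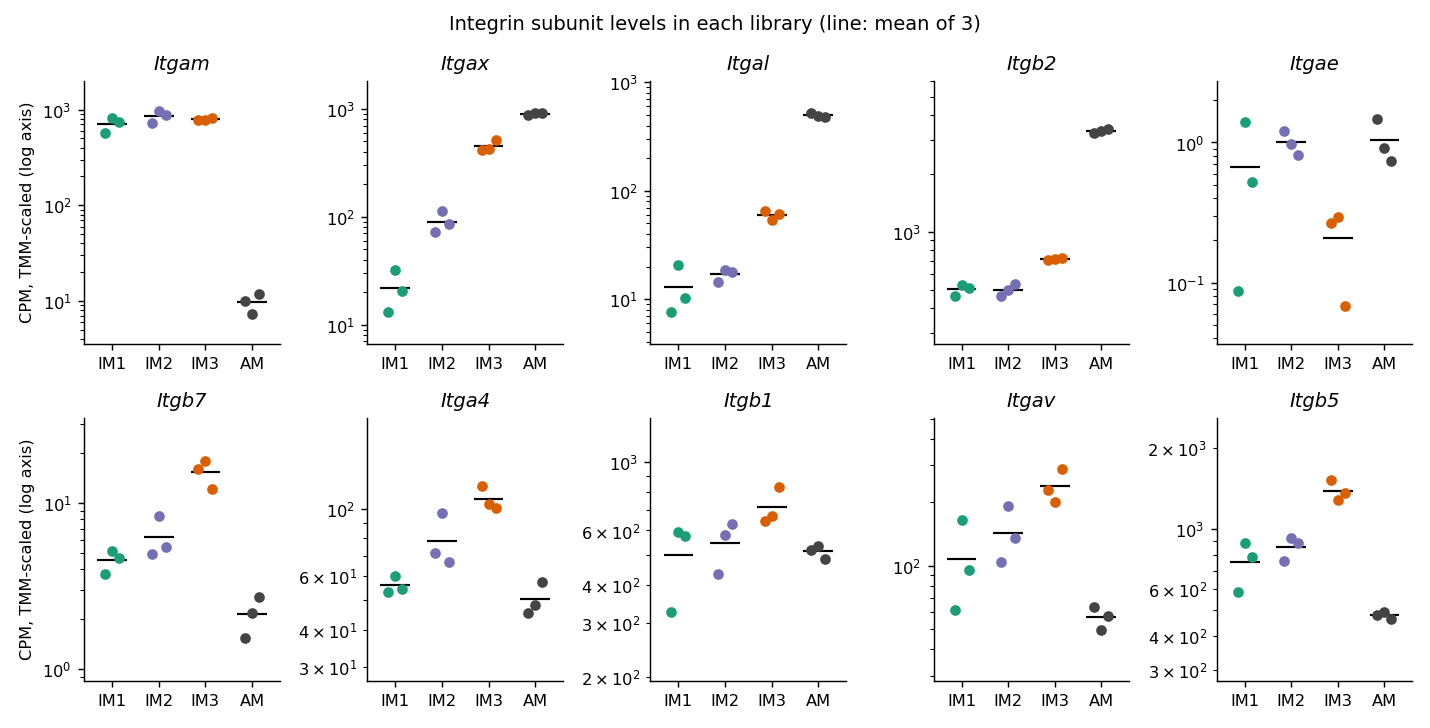
TMM-scaled CPM of the 10 integrin genes in each library (points) with the mean of 3 libraries (line) in IM1, IM2, IM3 and AM, on log axes that differ between panels. Itgal and Itgb2 libraries of AM lie above all interstitial libraries (480.5 to 520.6 and 3224 to 3409 CPM in AM), and 5 genes (Itga4, Itgb1, Itgav, Itgb5 and Itgb7) have their highest mean in IM3.

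The beta2 subunit and CD11a, neither of which was gated, were lower in all 3 interstitial populations. Itgb2, the shared beta subunit of the leukocyte integrins, had 465, 528.9 and 512.7 CPM in IM1 libraries A, B and C, 461.4, 499.8 and 535.5 in IM2, 716, 718.9 and 732.4 in IM3, and 3224, 3334 and 3409 in AM. The AM libraries lay well above every interstitial library, and the IM3 libraries lay above those of IM1 and IM2, which overlapped. Itgb2 fell, with a log2 fold change against AM of -2.55 ± 0.08 for the interstitial mean (SE; adjusted p = 2.7e-13), -2.73 ± 0.11 for IM1, -2.74 ± 0.11 for IM2 and -2.2 ± 0.11 for IM3. Itgal, whose product CD11a forms LFA-1 with beta2 and binds ICAM proteins, had 7.602, 20.89 and 10.25 CPM in IM1, 14.45, 18.66 and 17.72 in IM2, 65.53, 53.68 and 60.9 in IM3, and 520.6, 486.8 and 480.5 in AM. The order was AM, then IM3, then IM2 and IM1, whose libraries overlapped. Itgal fell as well, by a log2 fold change of -4.39 ± 0.18 for the interstitial mean (adjusted p = 5.51e-12), -5.25 ± 0.29 for IM1, -4.87 ± 0.28 for IM2 and -3.05 ± 0.26 for IM3. T and NK cells also carry LFA-1; their 7 markers summed to 7.36 to 11.3 CPM in IM1, 7.54 to 8.5 in IM2, 8.72 to 10.1 in IM3 and 150 to 170 in AM. Nearly all of the AM sum was Cd2 (157.2 CPM), with Cd3d and Ncr1 at 0 counts there. In IM1, IM2 and IM3, Cd2 averaged 7.946, 5.633 and 2.309 CPM, while Klrb1c averaged 0.8403, 1.833 and 6.979 CPM. The part of such cells was not tested. Itgb2 was also lower per length relative to its partners. The TPM of Itgb2 divided by the summed TPM of Itgal, Itgam, Itgax and Itgad was 1.41 ± 0.2 in IM1, 1.04 ± 0.128 in IM2 and 0.964 ± 0.0507 in IM3, with 3.49 ± 0.0906 in AM. The highest interstitial library was at 1.63 and the lowest AM library at 3.4. Gated genes made up most of the partners' summed TPM, with Itgam at 93.9%, 84.4% and 50.7% in IM1, IM2 and IM3. Itgax made up 71.9% in AM. The ratio is therefore description only.

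Itgam and Itgax, which differed from AM in opposite directions, as they were gated, are neighbours on chromosome 7. In the counted gene models (Ensembl release 78, mm10, plus strand) Itgam spans chr7:128062640-128128160 and Itgax spans chr7:128129547-128150656. Itgam, whose product forms the complement receptor CR3 with beta2, had 566.8, 818.8 and 745.2 CPM in IM1, 723.5, 972.9 and 870.1 in IM2, 777.7, 785.4 and 823.4 in IM3, and 10.09, 7.228 and 11.86 in AM. The interstitial libraries, gated on CD11b, overlapped each other and lay far above AM, gated against it, with log2 fold changes of 6.19 ± 0.22 in IM1, 6.46 ± 0.22 in IM2 and 6.35 ± 0.22 in IM3. No interstitial pair was called for Itgam, with log2 differences of -0.27 ± 0.17 for IM1 minus IM2 (adjusted p = 0.424), -0.16 ± 0.17 for IM1 minus IM3 (adjusted p = 0.525) and 0.10 ± 0.17 for IM2 minus IM3 (adjusted p = 0.822). Itgax, whose product forms CR4 with beta2, had 13.02, 32.43 and 20.31 CPM in IM1, 71.52, 112.7 and 86.09 in IM2, 418, 428.5 and 510.2 in IM3, and 883.7, 917.9 and 916 in AM. No 2 populations overlapped, and the mean in AM was 41.3 times that in IM1. IM1 and IM2, which carry the same CD11c label, differed by -2.03 ± 0.25 on the log2 scale (adjusted p = 0.000377). IM1 minus IM3 was -4.36 ± 0.27 and IM2 minus IM3 was -2.33 ± 0.25, differences that follow the CD11c labels. Against AM the log2 fold change was -5.36 ± 0.28 in IM1, -3.33 ± 0.26 in IM2 and -1 ± 0.24 in IM3. Itgam, Itgax and Itgad are related genes, and reads that mapped equally well to several places were not counted.

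The 250 bases upstream of the annotated starts of Itgam and Itgax are shown because these adjacent genes differed from AM in opposite directions, which the CD11b and CD11c gates fix; among the interstitial populations only Itgax was called. The sequences are from RefSeq on GRCm38.p6, plus strand, at chr7:128062390-128062639 and chr7:128129300-128129549. Capitals mark matches to GAGGAA (the core bound by PU.1, a macrophage transcription factor), TGTGGT (RUNX) and TGANTCA (AP-1) on either strand, and no match overlapped another. Distances run from RefSeq's starts, and the Itgax window ends 3 bases inside the counted gene model, whose start lies further upstream.
Itgam: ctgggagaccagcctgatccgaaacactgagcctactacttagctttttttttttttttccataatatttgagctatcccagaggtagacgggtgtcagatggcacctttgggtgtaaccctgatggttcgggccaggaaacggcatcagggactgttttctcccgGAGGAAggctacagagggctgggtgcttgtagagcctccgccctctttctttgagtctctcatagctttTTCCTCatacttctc
Itgax: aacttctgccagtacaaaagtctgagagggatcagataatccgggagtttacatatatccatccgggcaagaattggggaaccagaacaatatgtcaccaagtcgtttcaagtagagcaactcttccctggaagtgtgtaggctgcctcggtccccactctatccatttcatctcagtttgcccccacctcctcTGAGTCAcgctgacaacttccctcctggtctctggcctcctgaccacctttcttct
Itgam held 2 PU.1-type matches, starting 84 and 15 bases before the RefSeq start, and Itgax held 1 AP-1-type match, starting 56 bases before it. Of all 32851 promoter windows of this length, 23.3% held GAGGAA, 6.75% TGANTCA and 14% TGTGGT. Of the 7 members with an entry, 3 held GAGGAA (Itgam, Itgb1 and Itgav), 1 held TGANTCA, 1 held TGTGGT (Itga4), 4 held GGGCGG (SP1, 32.7% of all windows; Itgam, Itga4, Itgb1 and Itgb5). The TATA box motif (TATAAA) was in 12.4% of all windows and in 0 of the 7. These matches are letters in a window and were not tested as binding sites.

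The alpha4 and beta7 subunits were higher in interstitial macrophages, with their highest levels in IM3. Itga4, which encodes a receptor subunit for VCAM-1 and fibronectin, had 53.13, 60.09 and 54.56 CPM in IM1, 71.29, 97 and 66.66 in IM2, 119, 103.9 and 100.3 in IM3, and 45.47, 48.28 and 57.52 in AM. IM1 overlapped AM, IM2 lay above both, and IM3 lay above all others. Itga4 rose in IM2 (log2 fold change 0.64 ± 0.15, adjusted p = 0.00207) and IM3 (1.10 ± 0.15, adjusted p = 1.68e-05), and in IM1 its value was 0.15 ± 0.15 (adjusted p = 0.419). It was lower in IM1 than in IM3 (-0.95 ± 0.15, adjusted p = 0.00029), while IM1 minus IM2 (-0.49 ± 0.15, adjusted p = 0.139) and IM2 minus IM3 (-0.46 ± 0.15, adjusted p = 0.0653) were not called. Itgb7, the beta subunit shared by the alpha4 and CD103 receptors, was the scarcest of these 4 beta subunits per length, and had 3.757, 5.173 and 4.671 CPM in IM1, 4.969, 8.417 and 5.424 in IM2, 16.15, 18.04 and 12.11 in IM3, and 1.541, 2.175 and 2.725 in AM. Every interstitial library lay above every AM library, and IM3 lay above IM1 and IM2. Itgb7 rose by a log2 fold change of 1.08 ± 0.29 in IM1 (adjusted p = 0.00485), 1.54 ± 0.29 in IM2 (adjusted p = 0.000253) and 2.84 ± 0.29 in IM3 (adjusted p = 4.27e-07). Itga4 exceeded Itgb7 per length in every population, with a TPM ratio of 2.45 ± 0.282 in IM1, 2.5 ± 0.287 in IM2, 1.4 ± 0.25 in IM3 and 4.76 ± 0.896 in AM. Exons of Itga4 overlap those of Cerkl on the opposite strand in the counted models. Reads that fell on both genes were left uncounted as ambiguous, while the shared bases remain in the exon length of Itga4.

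The upstream window of Itga4 is shown as an example of an alpha subunit that was not gated and was lower in IM1 than in IM3, as Itgal and Itgav were too. It lies at chr2:79255176-79255425 (GRCm38.p6, plus strand, RefSeq), and the capitals mark a TGTGGT match on the reverse strand that starts 60 bases before the RefSeq start.
Itga4: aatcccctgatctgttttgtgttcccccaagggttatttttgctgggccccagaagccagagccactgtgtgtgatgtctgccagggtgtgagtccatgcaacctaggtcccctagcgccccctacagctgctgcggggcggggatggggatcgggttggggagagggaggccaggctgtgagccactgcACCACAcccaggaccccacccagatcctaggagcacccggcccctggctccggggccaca

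Itgae RNA was near the limit of detection in all populations, so no statement on CD103 beyond its scarcity can be made at this depth. The libraries held 1, 21 and 8 Itgae reads in IM1, 16, 14 and 13 in IM2, 4, 4 and 1 in IM3, and 21, 13 and 10 in AM. The levels averaged 0.6664 ± 0.665 CPM in IM1, 1.002 ± 0.193 in IM2, 0.2086 ± 0.123 in IM3 and 1.04 ± 0.384 in AM. Only IM3 was called against AM (-2.28 ± 0.75, adjusted p = 0.0166), and the call ended without IM3 replicate C (adjusted p = 0.071) or without AM replicate A (adjusted p = 0.0689).

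The alphaV and beta5 subunits, which form a vitronectin receptor together, were higher in all 3 interstitial populations. Itgav had 61.52, 164.8 and 95.3 CPM in IM1, 104, 191.6 and 134.9 in IM2, 229.2, 201.2 and 289.1 in IM3, and 63.82, 49.54 and 57.74 in AM. IM1 replicate A lay within the AM range, and all other interstitial libraries lay above it. Itgav rose by a log2 fold change of 0.91 ± 0.29 in IM1 (adjusted p = 0.0124), 1.33 ± 0.29 in IM2 (adjusted p = 0.000906) and 2.07 ± 0.29 in IM3 (adjusted p = 1.89e-05). The IM1 call ended without IM1 replicate B (0.46, adjusted p = 0.107) and without AM replicate B (0.81, adjusted p = 0.0543). Itgb5 had 583.9, 890.2 and 788.1 CPM in IM1, 758.6, 928.2 and 887.7 in IM2, 1521, 1279 and 1362 in IM3, and 479.9, 491.2 and 464.4 in AM. Every interstitial library lay above AM, and IM3 lay above the overlapping IM1 and IM2 libraries. Itgb5 rose by a log2 fold change of 0.66 ± 0.15 in IM1 (adjusted p = 0.00124), 0.84 ± 0.15 in IM2 (adjusted p = 0.000143) and 1.54 ± 0.15 in IM3 (adjusted p = 3.08e-07). Per length, Itgav was a small fraction of Itgb5 everywhere, at a TPM ratio of 0.0429 ± 0.0132 in IM1, 0.0517 ± 0.0114 in IM2, 0.0543 ± 0.0106 in IM3 and 0.0374 ± 0.0052 in AM. Exons of Itgav overlap Gm13684 on the opposite strand in the counted models, and reads that fell on both were likewise left uncounted.

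Itgb1, the beta subunit with the widest choice of alpha partners, was the member that varied least over the populations, with a highest mean 1.44 times its lowest. It had 326.2, 593.4 and 577.6 CPM in IM1, 432.8, 582.2 and 628.1 in IM2, 646.3, 670.6 and 832.4 in IM3, and 518.3, 535.2 and 485.3 in AM. IM1 and IM2 overlapped AM on both sides, and IM3 lay just above all others. The interstitial mean was not called against AM (0.18 ± 0.16, adjusted p = 0.355), nor were IM1 (-0.04 ± 0.20, adjusted p = 0.879) and IM2 (0.09 ± 0.20, adjusted p = 0.701). IM3 was at the threshold (0.48 ± 0.20, adjusted p = 0.0499), and 10 of 19 alternative settings lost that call. Without IM1 replicate A the value for IM1 turned to 0.19 (adjusted p = 0.266) and that for the interstitial mean became 0.25 (adjusted p = 0.0449).

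**Figure D3:**
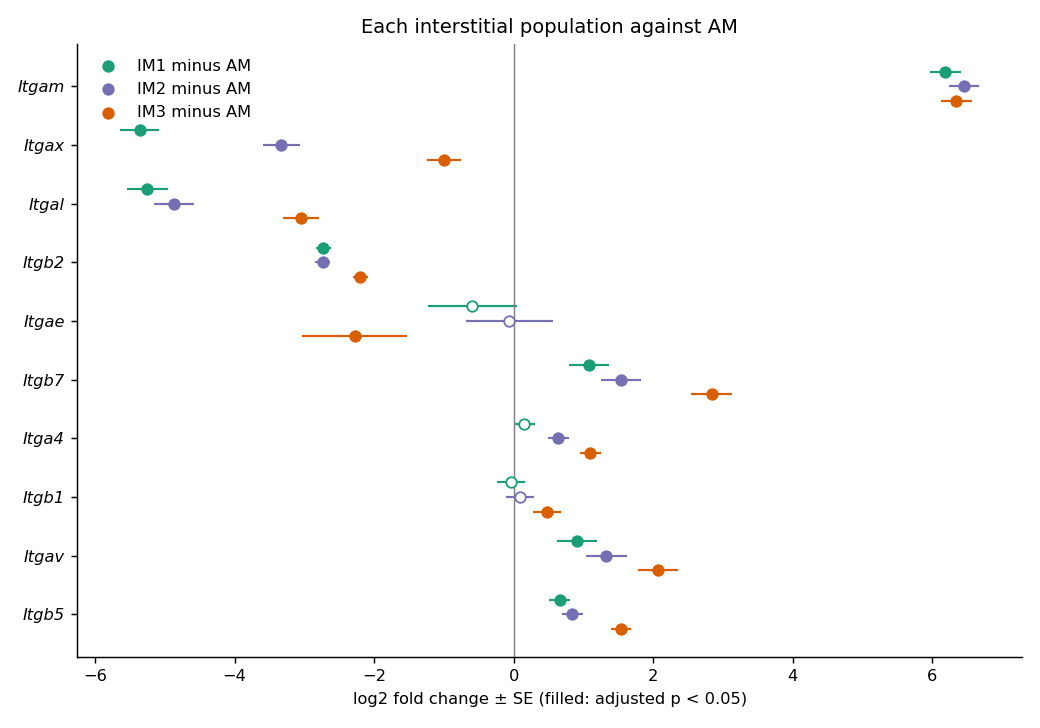
Log2 fold change against AM (x axis, positive where the interstitial population is higher) of each integrin gene in IM1, IM2 and IM3, with SE bars, filled where adjusted p was under 0.05 (n = 3 libraries each). Itgax, Itgal and Itgb2 lie below 0 and Itgam, Itgb7, Itgav and Itgb5 above 0 in all 3 populations, and Itgax runs between -5.36 in IM1 and -1 in IM3.

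Among the interstitial populations, IM3 had the higher level for most members. In IM1 minus IM3, 7 members were lower and 0 higher (Itgax, Itgal, Itgb2, Itga4, Itgav, Itgb5 and Itgb7), where 24.4% of all genes tested were called, 12.7% higher and 11.7% lower. The libraries of 8 members did not overlap there, against 36.7% of all genes. The members' median log2 fold change there was -0.91, against 0.02 over all genes tested. In IM2 minus IM3, 5 were lower and 0 higher (Itgax, Itgal, Itgb2, Itgb5 and Itgb7), where 11.4% of genes were called, 6.49% higher and 4.94% lower, and 30.5% did not overlap, nor did 9 members (1 higher, 8 lower), with a median of -0.61 for the members and 0.00 over all genes. Both sets of counts and medians include Itgax, whose CD11c label differs between IM3 and the other interstitial populations, and are description only. IM1 and IM2 differed for Itgax alone, where 1.71% of genes were called, 0.49% higher and 1.22% lower, and 15.5% did not overlap, nor did 2 members. The sizes were -2.21 ± 0.26 for Itgal, -1.76 ± 0.27 for Itgb7, -1.16 ± 0.29 for Itgav, -0.88 ± 0.15 for Itgb5 and -0.52 ± 0.11 for Itgb2 in IM1 minus IM3. For IM2 minus IM3 they were -1.82 ± 0.25 for Itgal, -1.30 ± 0.26 for Itgb7, -0.69 ± 0.15 for Itgb5 and -0.53 ± 0.11 for Itgb2. IM1 minus IM3 and IM2 minus IM3 share the IM3 libraries. Itgb2 and Itgal were highest in AM and second in IM3, whereas Itgav, Itgb5, Itga4 and Itgb7 were highest in IM3 and lowest in AM. In IM2 minus IM3, Itgav (-0.74 ± 0.28, adjusted p = 0.119) and Itgae (2.22 ± 0.75, adjusted p = 0.073) were not called, and leaving out IM1 replicate A called both, along with Itga4 and Itgb1, to give 9 members. Leaving out IM1 replicate B added Itgal, Itga4 and Itgav to the call in IM1 minus IM2, to give 4 members. The level of the monocyte marker Ccr2, given above, was also highest in IM3. Of the dendritic cell markers, Flt3 averaged 2.857, 6.439 and 17.81 CPM and Dpp4 1.573, 3.8 and 9.414 CPM in IM1, IM2 and IM3, while Zbtb46 averaged 43.23, 42.09 and 11.64 CPM. The part of monocytes and dendritic cells in these differences was not tested.

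**Figure D4:**
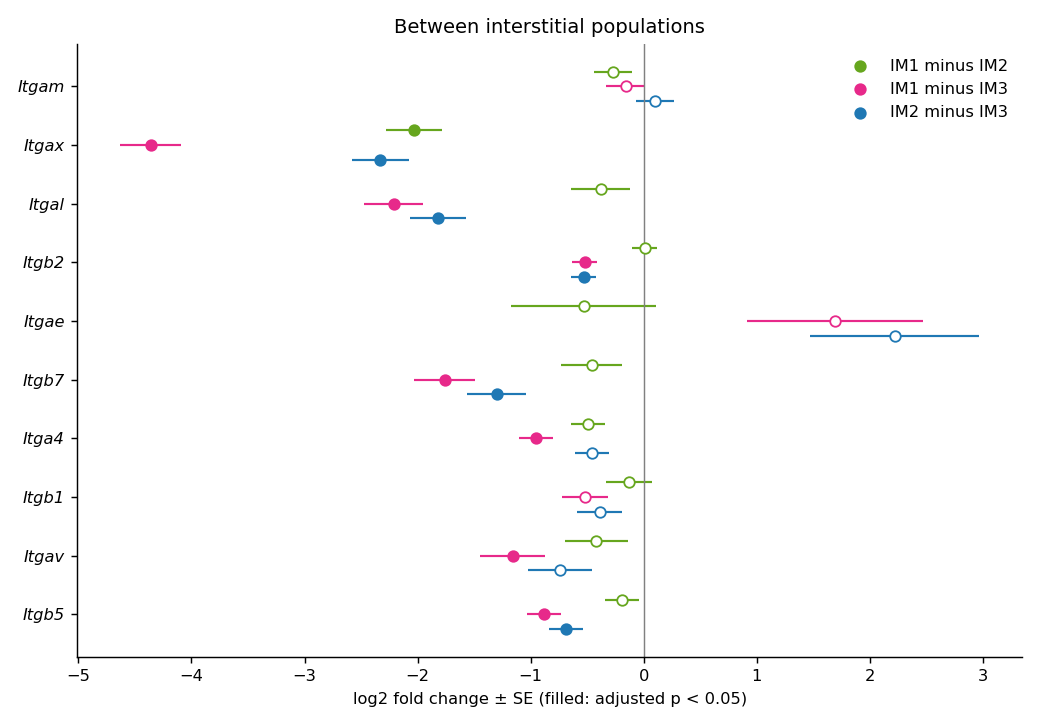
Log2 fold change of each integrin gene between interstitial populations (x axis; IM1 minus IM2, IM1 minus IM3 and IM2 minus IM3), with SE bars, filled where adjusted p was under 0.05 (n = 3 libraries each). Most IM1 minus IM3 and IM2 minus IM3 values lie below 0, down to -4.36 for Itgax, while Itgam lies near 0 and Itgae above it with few reads.

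Other integrin subunit genes were read from a list of 17, of which 8 passed the filter. Of these, 5 were higher in the interstitial mean than in AM and 3 lower, with a median log2 fold change of 2.59 when the 4 genes without an AM read are set at their bound (4.01 as fitted), against 0.10 over all genes, of which 35.9% were higher and 28.7% lower. Those 4 genes (Itga3, Itga8, Itga9 and Itgb3) could pass the filter only through the interstitial libraries, so their direction was fixed in advance. The count and median of this list are therefore description only. Itga9, a receptor subunit for tenascin-C and VCAM-1, had 63.7, 136.1 and 106.3 CPM in IM1, 126.9, 157.2 and 158.4 in IM2, 188.8, 185.7 and 237.2 in IM3, and 0 reads in every AM library. It was at least 2120-fold higher in the interstitial mean, against a floor of 3 reads over the AM group. Itga8, which pairs with beta1, averaged 3.845 ± 1.49 CPM in IM1, 8.23 ± 1.33 in IM2 and 24.91 ± 7.17 in IM3, at least 173-fold above AM, which had 0 reads. Itga3 and Itgb3 were low but also had 0 AM reads, at least 14.9-fold and at least 7.22-fold higher in the interstitial mean. Itga6, a laminin receptor subunit, rose by 2.32 ± 0.28 (adjusted p = 2.16e-06). The other 9 (Itga2, Itga2b, Itga7, Itga10, Itga11, Itgb2l, Itgb4, Itgb6 and Itgb8) averaged below 1 CPM in every population, and Itgb2l had no read. Lower in the interstitial mean were Itgad, the 4th CD11 gene (0.7139 CPM against 37.73 in AM; -5.88 ± 0.23, adjusted p = 3.56e-12), the collagen receptor subunit Itga1 (-2.09 ± 0.21, adjusted p = 3.83e-07) and the fibronectin receptor subunit Itga5 (-0.56 ± 0.19, adjusted p = 0.0186). Itga5 was lower than in AM in IM1 (-1.04 ± 0.25, adjusted p = 0.00206) and IM2 (-0.73 ± 0.25, adjusted p = 0.0184), and its value for IM3 was 0.07 ± 0.24 (adjusted p = 0.822). Itga8, Itga9, Itga5 and Itgad were lower in IM1 than in IM3, and Itga8 and Itga5 lower in IM2 than in IM3. For Itgad this rests on few reads, 6, 1 and 11 in the IM1 libraries and 13, 17 and 23 in those of IM3. Fibroblasts and endothelium also express several of these subunits, and their summed marker levels, given above, were higher in the interstitial libraries; their part was not tested.

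Genes that activate integrins or link them to actin moved in both directions. Of 36 listed, 33 were tested, and 15 were higher and 11 lower in the interstitial mean than in AM, with a median log2 fold change of 0.22. Of all genes tested 35.9% were higher and 28.7% lower there, with a median of 0.10. The 33 include 2 without an AM read, which could pass the filter only through the interstitial libraries. Fyb (now Fyb1), an adaptor that binds SKAP proteins, averaged 122.6 CPM in the interstitial libraries and 0.9995 in AM (6.92 ± 0.21, adjusted p = 2.13e-13). Tln2, the less widely studied talin, rose by 4.85 ± 0.41, the kinase Src by 4.27 ± 0.32 and focal adhesion kinase Ptk2 by 4.21 ± 0.34. The Ptk2 relative Ptk2b (Pyk2) moved the other way (-1.38 ± 0.13, adjusted p = 9.98e-08), as did the leukocyte parvin Parvg (-3.81 ± 0.11), the Src-family kinase Fgr (-3.46 ± 0.14) and alpha-actinin Actn1 (-3.44 ± 0.15). Kindlin-3 (Fermt3) fell by 0.25 on the log2 scale in the interstitial mean (adjusted p = 0.0185), but was not called in IM3 alone (-0.16 ± 0.11, adjusted p = 0.205). Talin-1 (Tln1) was not called in the interstitial mean (0.22, adjusted p = 0.226). It was lower in IM1 than in IM3 (-0.59 ± 0.19, adjusted p = 0.0343), with overlapping libraries. Kindlin-3 and talin-1 were named after their values were seen, as the main activators of leukocyte integrins. Tln2 separated the interstitial populations, with 48.59, 68.51 and 82.2 CPM in IM1, 49.23, 34.72 and 51.97 in IM2, 3.177, 1.173 and 3.721 in IM3, and 0.2102, 1.263 and 0.5892 in AM. IM1 and IM2 lay far above IM3 (IM1 minus IM3 4.61 ± 0.37, IM2 minus IM3 4.06 ± 0.36), opposite to most integrin members. In IM1 minus IM3, 4 adaptor genes were higher and 14 lower, where 12.7% of all genes tested were higher and 11.7% lower. Rasgrp2, an activator of Rap1, was higher in IM1 (2.69 ± 0.31) and IM2 (2.70 ± 0.31) than in IM3, while Parvg (-2.43 ± 0.16 and -1.97 ± 0.15) and Fgr (-2.14 ± 0.20 and -1.35 ± 0.19) were lower in IM1 and in IM2 than in IM3. No adaptor gene was called in IM1 minus IM2, where only 1.71% of all genes tested were called.

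**Figure D5:**
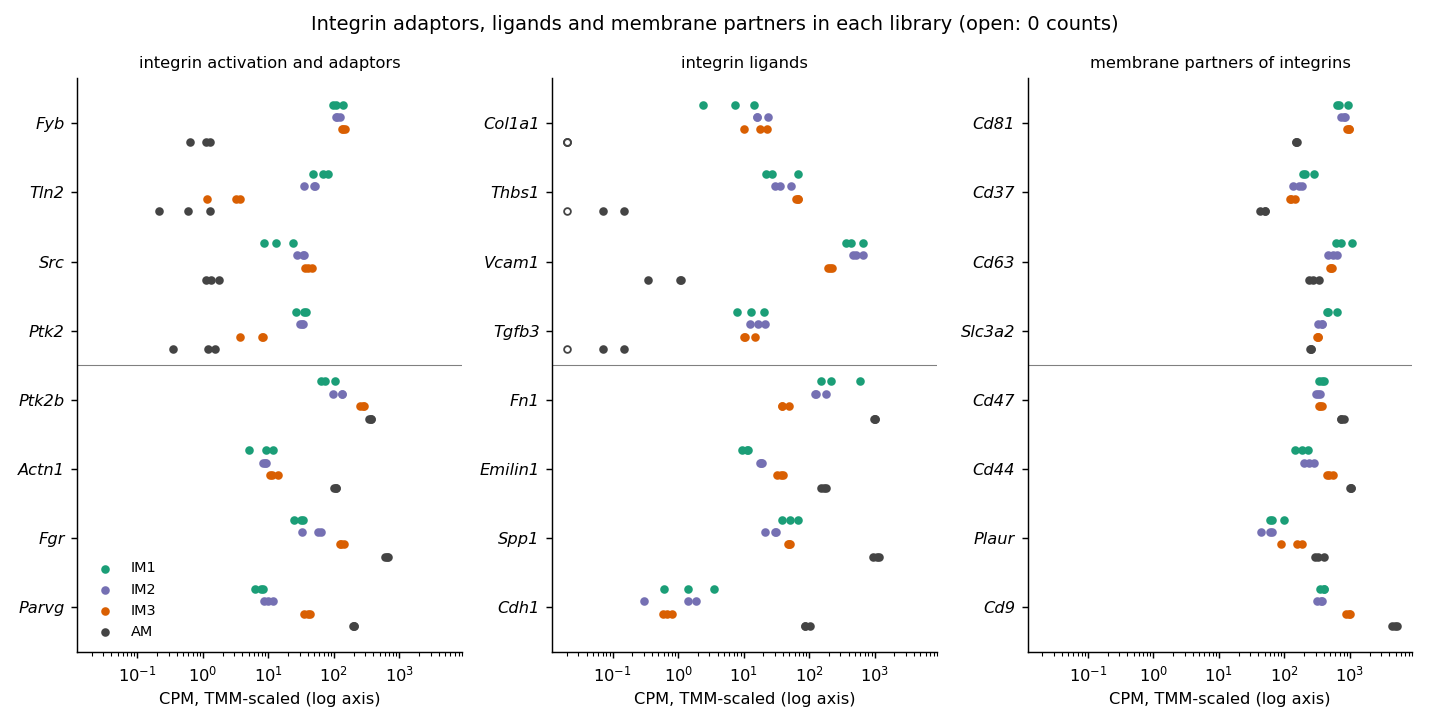
TMM-scaled CPM (log x axis) of the integrin adaptors, ligands and membrane partners with the largest called change in each direction, each point a library of IM1, IM2, IM3 or AM from top to bottom within a gene, with open points for libraries at 0 counts drawn at the left edge. Genes above the line were higher in the interstitial mean (Fyb 122.6 CPM against 0.9995 in AM) and genes below it lower (Cd9 561.4 against 4837).

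Ligands of the described integrins differed strongly. Of 31 listed, 24 were tested, 14 were higher and 9 lower in the interstitial mean, with a median log2 fold change of 1.27, where 64.6% of all genes were called (35.9% higher, 28.7% lower) and their median was 0.10. The 24 include 4 without an AM read, which could pass the filter only through the interstitial libraries. Vcam1, the ligand of alpha4 and alpha9 integrins, had 670.7, 439 and 362.8 CPM in IM1, 651.4, 526.8 and 473.1 in IM2, 223.1, 206.4 and 193.8 in IM3, and 0.3503, 1.053 and 1.105 in AM. It rose by 8.83 ± 0.33 (adjusted p = 1.92e-12) and was higher in IM1 than in IM3 (1.24 ± 0.22). Col1a1, a collagen chain, was at least 203-fold higher, with 0 reads in AM. Thrombospondin (Thbs1) was 686 times higher (95% counting interval 235 to 3330) and Tgfb3, a cytokine made in a latent form, 199 times higher (67.9 to 965), each with 3 AM reads in all. Cdh1 (E-cadherin, the ligand of CD103) was at 1.245 CPM in the interstitial mean and 91.41 in AM (-6.27 ± 0.28, adjusted p = 1.67e-11). Spp1 (osteopontin) was at 42.68 and 1058 CPM (-4.69 ± 0.14), Emilin1 at 22.05 and 167 CPM (-3.10 ± 0.10) and Fn1 (fibronectin) at 169.6 and 1005 CPM (-3.00 ± 0.26) in the interstitial mean and in AM. Fn1 was higher in IM1 (2.93 ± 0.37) and IM2 (1.75 ± 0.36) than in IM3, with IM1 replicate B at 598.9 CPM against 152 and 218.3 in the other IM1 libraries. F11r (JAM-A, a ligand of LFA-1) was lower in IM1 (-1.96 ± 0.16) and IM2 (-1.58 ± 0.16) than in IM3, as was Emilin1 (-1.77 ± 0.14 and -0.98 ± 0.13). C3, whose fragment iC3b is the ligand of CR3 and CR4, was higher in IM2 than in IM3 (1.58 ± 0.27). Spp1 was higher (0.92 ± 0.19, adjusted p = 0.0195) and Emilin1 lower (-0.79 ± 0.14, adjusted p = 0.00738) in IM1 than in IM2. Collagen and periostin genes are typical of fibroblasts, whose markers Col1a2, Col3a1, Dcn and Lum were present in the interstitial libraries and at 0 in AM; their part was not tested. Of 4 epithelial markers tested, 3 were higher in the interstitial mean and 1, Epcam, was lower. Epcam was at 66.74 CPM of assigned reads in AM, where Cdh1 was high, while Sftpb was at 0 reads there. Sftpc averaged 11.95, 17.72 and 7.469 CPM in IM1, IM2 and IM3 and 0.3223 in AM. Scgb1a1 averaged 6.416, 4.493 and 1.127 CPM in IM1, IM2 and IM3 and 0.548 in AM. All 6 listed epithelial markers summed to 66.1 to 68.7 CPM in AM and at most 47.1 in any interstitial library.

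Membrane partners of integrins were also divided. Of 12 tested, 4 were higher and 6 lower in the interstitial mean, again where 64.6% of all genes were called (35.9% higher, 28.7% lower). The median log2 fold change of the partners was -0.29, and that of all genes 0.10. The tetraspanins went both ways: Cd81 (2.44 ± 0.14), Cd37 (1.82 ± 0.15) and Cd63 (1.10 ± 0.17) rose, while Cd9, at 561.4 CPM against 4837 in AM, fell by 3.27 on the log2 scale (adjusted p = 8.51e-14). Slc3a2, the CD98 heavy chain that binds beta1 tails, rose by 0.62 ± 0.11. The urokinase receptor Plaur (-2.0 ± 0.19), the hyaluronan receptor Cd44 (-1.87 ± 0.12) and Cd47 (-1.12 ± 0.09) fell. Cd9 was lower in IM1 (-1.31 ± 0.13) and in IM2 (-1.45 ± 0.13) than in IM3, Cd44 was lower in IM1 than in IM3 (-1.39 ± 0.16), and Plaur was lower in IM2 than in IM3 (-1.34 ± 0.25). Cd37 (0.81 ± 0.16) and Slc3a2 (0.67 ± 0.13) were higher in IM1 than in IM3.

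The members also differed in how alike their profiles were, measured as the root mean square difference of log2 CPM over the 12 libraries after each profile was centred on its own mean. The closest members were Itga4 and Itgb5 (0.25), then Itgav and Itgb5 (0.33) and Itga4 and Itgb1 (0.37). The profiles were not scaled, so genes that vary little can lie close by this measure. The highest population mean was 2.14, 2.9 and 1.44 times the lowest for Itga4, Itgb5 and Itgb1. It was 38.4 and 41.3 times the lowest for Itgal and Itgax, which had the same order of populations. Itgal and Itgax (0.94) and Itgal and Itgb2 (1.08) were nearest within the beta2 family, and Itgam was at least 2.08 from every other member. The gene most like each member among all genes tested was Nceh1 for Itgb2 (0.091), Selenon for Itgb1 (0.106), Pip4k2a for Itgb5 (0.123), Ddi2 for Itga4 (0.129), Soga1 for Itgav (0.16), Myh10 for Itgam (0.185), Tmem171 for Itgb7 (0.25), B3gnt7 for Itgal (0.281) and Klra2 for Itgax (0.439). These values describe 12 libraries in 4 populations. Itgae, below 10 CPM throughout, was left out.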

How the data were processed

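RNA of 4 sorted mouse lung macrophage populations was amplified with SMART-Seq v4 and sequenced on Ion Proton, per the labels' protocols. The deposited tables hold whole-number read counts per Ensembl gene, made with featureCounts 1.5.0-p1 per the file headers. STAR 2.5.1b and mm10 are named in the submitters' processing notes. The counting was unstranded and dropped reads with several equal alignments, per the file headers. Of 43346 gene rows, 42462 (98.0%) were matched to symbols.

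The 38 deposited runs were summed into 12 libraries. TPM were computed from the deposited gene lengths and CPM with TMM factors. edgeR 4.0.16 (R 4.3.3) fitted all 12 libraries by population with a robust quasi-likelihood test after filterByExpr (minimum count 10), with Benjamini-Hochberg adjustment over the 14095 genes kept and calls at adjusted p under 0.05. The procedure was tested on simulated counts in which all genes and libraries had the same spread. That test does not cover the wider scatter of the IM1 replicates. Alternatives used other scalings, no filter, DESeq2 1.42.0, limma 3.58.1 voom, a replicate block, only the populations compared, and each library left out.

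All 10 members and the listed other integrins are named. Of the other lists the 4 called genes (2 for interstitial pairs) with the largest change in each direction and at least 10 CPM in the higher group are named. Members and lists were chosen with earlier results of these data known. Counting intervals and floors cover counting error only. Same-letter libraries of IM2 and IM3 deviated together (correlations of 0.29, 0.41 and 0.27 for A, B and C), which came from the data and not the labels; for no other pair of populations were all 3 over 0.1.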

Additional observations from a re-analysis of the deposited data

How the results depend on the processing

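Of the 70 comparisons of members, 56 had the same call under every alternative run, and 43 of the 46 called ones kept their call. The other 3 calls (Itgb1 in IM3, Itgav in IM1 and Itgae in IM3, each against AM) are given with the results. Values that changed sign were small and uncalled: Itgb1 in IM1 minus AM was 0.02 with upper-quartile scaling and -0.18 to 0.19 with 1 library left out. With 1 library left out, Itgae in IM2 minus AM ran from -0.26 to 0.27, Itgb1 in IM2 minus AM from -0.01 to 0.25, Itgb1 in IM1 minus IM2 from -0.29 to 0.10 and Itgb2 in IM1 minus IM2 from -0.05 to 0.06. The count of all genes called in IM1 minus IM2, 241, was 941 with no filter, 591 with DESeq2, 93 with voom and 71 with only these populations; leaving out 1 library gave 110 to 1904, the highest without IM1 replicate B. In IM1 minus IM3 it was 3445, and 2268 with only these populations. Members called in IM1 minus IM2 ranged from 1 to 4 and in IM2 minus IM3 from 5 to 9 with 1 library left out; the IM2 minus IM3 count was 8 with voom and 8 with only these populations. The causes were not tested. The Itgax share of the summed beta2 alpha subunits, 4.42%, 13.9%, 45.3% and 71.9% of TPM in IM1, IM2, IM3 and AM, was 2.85%, 9.29%, 34.5% and 62.5% when gene length was ignored, in the same order. A replicate block gave 392 genes in IM1 minus IM2 and added Itgb1 in IM1 minus IM3 (-0.55, adjusted p = 0.0182); it changed no other call of a member. The labels do not say that a letter marks a shared animal or day. Deviations from the population means correlated between -0.24 and 0.41 over 18 same-letter pairs, and a library correlated best with its own letter in 20 of 36 cases. For IM2 and IM3 the letters pair the libraries by this measure, and the block changed no member's call between them. Upper-quartile scaling and leaving out the filter moved the median of all genes in the interstitial mean minus AM to 0.14 and 0.37, against 0.10. Depth limits Itgae, with 1 to 21 reads per library.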
